A study of Maylandia zebra with 2 samples.

Results

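The genes *jag2b*, *notch3*, *notch1a*, *her9* and *mfng* are 5 genes of the Notch pathway, chosen by their exact names among the 28622 features of the deposited count matrix. All 5 names matched 1 feature each. They were followed through the nuclei of the oral lamina, a soft tissue next to the replacement teeth, of *Maylandia zebra*, a cichlid. The question put to them was on which side of the layered epithelium the ligand is read and on which side the receptors. A further one was in which nuclei the fringe enzyme and *her9* are found.

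Notch is a signalling route between touching cells. A ligand of the Delta or Jagged family on the surface of a cell binds a Notch receptor on its neighbour. The receptor is then cut, and its inner part enters the nucleus and switches on repressors of the her and hey families together with the DNA-binding protein RBPJ. Fringe enzymes add sugars to the receptor and so change which ligands it answers to. In mammalian skin the pathway is known for its part in the step from basal cells to the cells above them. In this set *jag2b* codes for a Jagged ligand, *notch3* and *notch1a* for receptors, *mfng* for a fringe enzyme and *her9* for a hairy-related repressor.

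Single nuclei were sorted from the upper and from the lower jaw, with 1 library each and no treatment named in the labels, and counted with the 10x Chromium V3 kit. The labels give neither the age of the fish nor how many were pooled. Both jaws lie in 1 matrix, barcodes carry the suffix 1 or 2, and no file used here says which jaw a suffix stands for. The nuclei are therefore treated as a single pooled sample without replicates. No p is given.

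The authors kept 1296 of 1381 barcodes (754 with suffix 1 and 542 with suffix 2), and 1 barcode sequence occurs in both suffix sets. Kept nuclei held 1423040 UMIs (unique molecular identifiers, counts of RNA molecules), with a median of 832.5 and a range of 367 to 5326 in a nucleus. They fall into 12 clusters and 6 classes named by the authors, of which the Epithelial class holds 808 nuclei. Levels are given as CPM, the UMIs of a gene scaled to a common total of the group, with exact Poisson 95% intervals, and folds are ratios of CPM with exact conditional 95% intervals. All intervals cover counting error only, and where several UMIs of a gene lie in the same nucleus they are too narrow. Clusters were built by the authors from these same nuclei, so folds between them are a description and no test.

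The epithelial clusters were placed by lists of junction genes. Genes that anchor basal cells to the basement membrane (16 features, among them *itga6b* and *itgb4*) summed to 10452 CPM in cluster 3, 5861 CPM in cluster 4 and 22433 CPM in clusters 0, 1 and 7 together. Genes of desmosomes and of the envelope of upper cells (12 features, among them *evpla* and *ppl*) summed to 6690 CPM in cluster 3, 8370 CPM in cluster 4 and 4159 CPM in clusters 0, 1 and 7. Of 10 features of this list with at least 20 UMIs, 4 were at least 2-fold higher and 1 lower in cluster 3. Cluster 4 had the same counts. Of all features, 9.29% were higher and 18.5% lower in cluster 3, and 16.4% and 24.9% in cluster 4. Clusters 3 and 4 (287 nuclei, median 649.0 UMIs) are called upper-like below, and clusters 0, 1 and 7 (521 nuclei, median 976.0 UMIs) basal-like. Cluster 3 holds the lesser share of both shifts, and *evpla* was at 239 CPM there against 2135 CPM in cluster 4. Leukocyte genes summed to 345 CPM in cluster 3, 1841 CPM in cluster 4 and 261 CPM in the basal-like clusters. Of the 251 UMIs of this list in cluster 4, *ptprc*, *ikzf1* and *jak3* held 3, 2 and 6.

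The ligand gene *jag2b* was read in the basal-like clusters and little in the upper-like ones. It had 115 CPM (59.3–201, from 12 UMIs) in cluster 3 and 80.7 CPM (40.3–144, from 11 UMIs) in cluster 4. In the basal-like clusters it had 525 CPM (461–595, from 242 UMIs) in cluster 0, 841 CPM (699–1004, from 123 UMIs) in cluster 1 and 481 CPM (333–672, from 34 UMIs) in cluster 7. The intervals of the upper-like and the basal-like clusters do not overlap. The upper-like clusters together stood at 0.162 of the basal-like level (0.102–0.247), and the suffix sets gave 0.156 and 0.129. Of the 511 UMIs of *jag2b* in kept nuclei, 78.1% lay in the basal-like clusters and 4.50% in the upper-like ones.

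Among the basal-like clusters, cluster 1 stood above cluster 0 by 1.60-fold (1.28–2.00), while cluster 0 and cluster 7 did not differ beyond counting error. Cluster 0 over clusters 1 and 7 together was 0.725 (0.591–0.893), with 0.604 in suffix 1 and 1.08 in suffix 2. A UMI of *jag2b* was found in 54.3% of cluster 0 nuclei (47.7–60.8, Clopper-Pearson), 37.4% of cluster 1 nuclei and 35.4% of cluster 7 nuclei. Cluster 0 is also the deepest cluster, at 1703 UMIs in the median nucleus against 632.0 in cluster 1. Thinned to 500 UMIs a nucleus, the shares were 22.4% in cluster 0, 31.8% in cluster 1 and 19.1% in cluster 7, so the order of clusters 0 and 1 turns round.

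Outside the epithelium *jag2b* had 203 CPM (141–284) in the Immune cluster 2, 142 CPM in the Pigmented cluster 5 and 182 CPM in the Mesenchymal cluster 6. The share of nuclei with a UMI was 5.06% in cluster 3 and 7.75% in cluster 4, and thus no higher than the 12.2% of cluster 2 (medians of 565.0, 753.0 and 744.0 UMIs). Thinned to 500 UMIs these shares were 5.88%, 3.38% and 7.05%. Whether clusters 3, 4 or 2 express *jag2b* is not read from these UMIs, and their source was not tested. Set against the keratin gene *krt5*, *jag2b* had 47.6 UMIs (35.3–62.7) per 1000 *krt5* UMIs in the Immune class, 42.6 in the Pigmented class and 37.4 in the Mesenchymal class, against 38.3 (34.6–42.3) in the basal-like clusters. The intervals of these classes overlap that of the basal-like clusters. This does not set *jag2b* apart, since the ratios of *notch3* in the Immune and Pigmented classes also overlap its basal-like one. They were 18.1 (10.9–28.2) and 19.7 (7.22–42.8), against 15.4 (13.1–17.9). What these ratios stem from was not tested. No UMI of *jag2b* was found in the 21 nuclei of the Mature TB cluster 10, where 3 UMIs would equal 119 CPM.

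**Figure D1:**
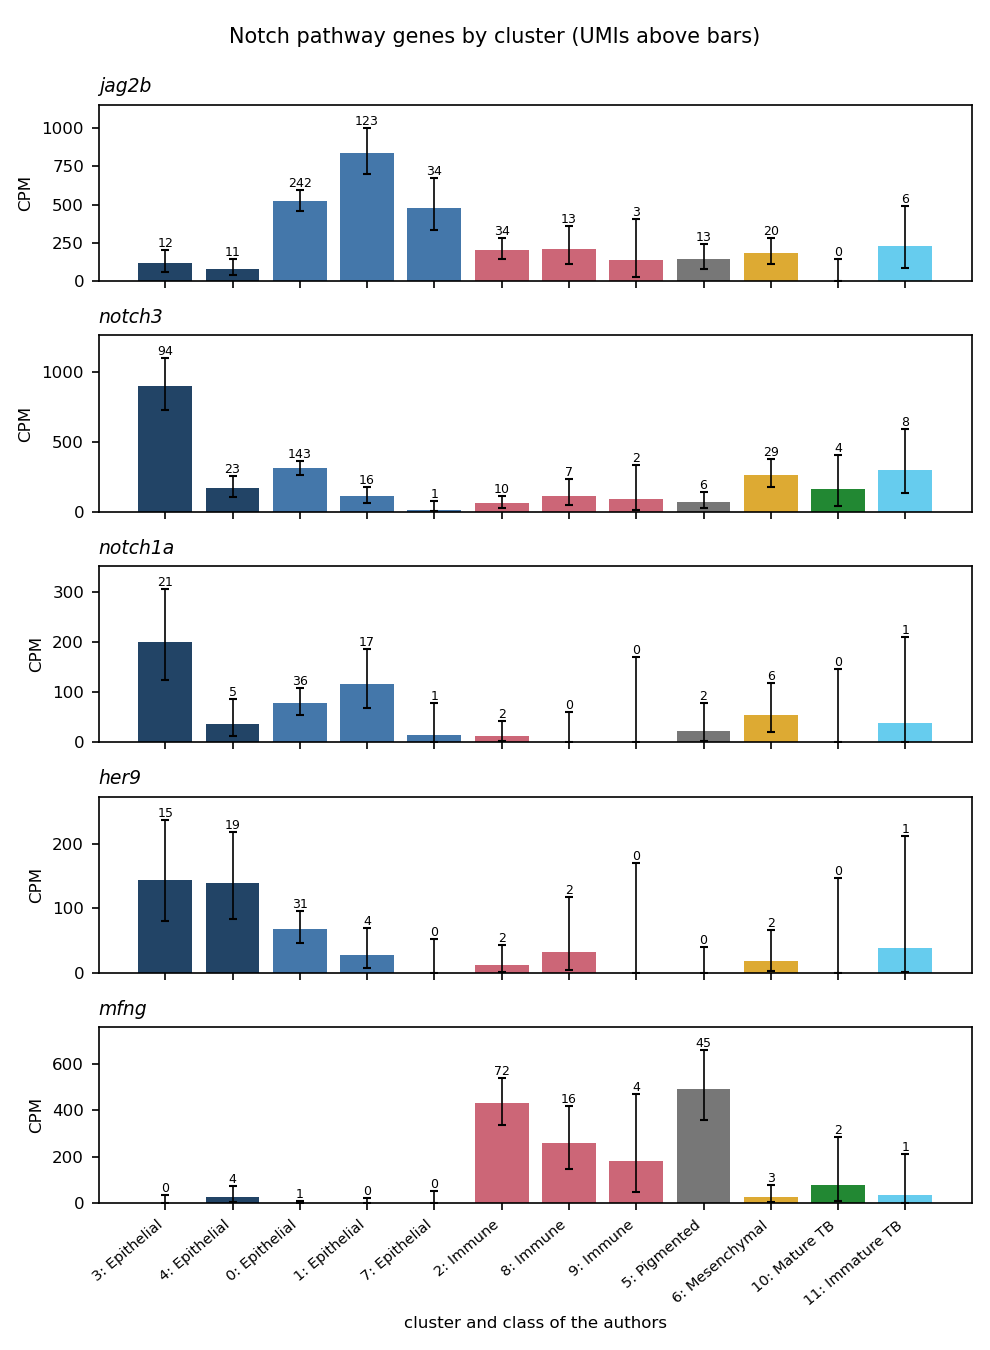
Level of each gene in CPM (y axis, linear, from 0) in the 12 clusters (x axis, epithelial clusters first, upper-like clusters 3 and 4 in dark blue); bars are pooled values, lines are 95% Poisson intervals and numbers are UMIs. *jag2b* stands highest in cluster 1 at 841 CPM, *notch3* in cluster 3 at 900 CPM and *mfng* in cluster 5 at 492 CPM.

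The receptor gene *notch3* had its highest level in cluster 3. It had 900 CPM (727–1101, from 94 UMIs) there and 169 CPM (107–253, from 23 UMIs) in cluster 4. In the basal-like clusters it had 310 CPM (261–365, from 143 UMIs) in cluster 0, 109 CPM (62.5–178, from 16 UMIs) in cluster 1 and 14.1 CPM (0.358–78.8, from 1 UMI) in cluster 7. Cluster 3 stood above every other cluster, 2.90-fold (2.21–3.79) above cluster 0, the next in order, and no other pair of neighbours in the order of levels differed beyond counting error. The epithelium as a whole was 2.30-fold (1.76–3.06) above the other nuclei, with 1.87 in suffix 1 and 2.87 in suffix 2.

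Cluster 3 over the basal-like clusters gave a *notch3* fold of 3.81 (2.92–4.95), with 6.19 (4.12–9.37) in suffix 1 and 3.05 (2.01–4.52) in suffix 2. The level in cluster 3 was alike in both sets, at 870 CPM in suffix 1 and 959 CPM in suffix 2. What differed was the basal-like level, at 141 CPM (102–189) in suffix 1 and 314 CPM (260–377) in suffix 2. Cluster 4 over the basal-like clusters was 0.715 (0.440–1.11), an interval that holds 1, with 1.26 and 0.486 in the suffix sets, and cluster 3 over cluster 4 was 5.33 (3.35–8.82). The 2.06-fold (1.61–2.63) of both upper-like clusters together, with 3.41 and 1.59 in the suffix sets, thus rests on cluster 3 alone.

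A *notch3* UMI was found in 38.6% of cluster 3 nuclei (31.0–46.7), 11.6% of cluster 4 nuclei and 33.3% of cluster 0 nuclei, against 3.87% in the Immune cluster 2. Thinned to 500 UMIs, these shares were 33.4% in cluster 3, 6.30% in cluster 4 and 12.6% in cluster 0. Within the basal-like side, cluster 0 stood 3.96-fold (2.39–6.98) above clusters 1 and 7, and it did so in both suffix sets (4.80 and 3.15). With all nuclei pooled, cluster 0 thus had more *notch3* and less *jag2b* than clusters 1 and 7 together. For *jag2b* this did not hold in suffix 2, at 1.08 (0.766–1.55). Whether the orders are opposite throughout cannot be told from cluster 7. It had the lowest *notch3* level of the basal-like clusters, from 1 UMI. Its *jag2b* level was not separated from that of cluster 0, which stood at 1.09 of it (0.760–1.61).

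In mouse and zebrafish *notch3* is also read in the mural cells of blood vessels. The Mesenchymal cluster 6 had 263 CPM (176–378) of *notch3*, which did not differ from cluster 0 beyond counting error. Its ratio to *krt5* was 54.2 UMIs (36.3–77.8) per 1000, against 21.6 (19.1–24.3) in the Epithelial class. Within that class the ratio was 15.4 (13.1–17.9) in the basal-like clusters and 48.6 (40.2–58.2) in the upper-like ones. The interval of cluster 6 overlaps that of the upper-like clusters. Cluster 6 also held the highest sums of the mural list (953 CPM) and of the endothelial list (327 CPM). Of the mural sum *tagln* made 744 CPM, and this gene was at 725 CPM in the basal-like cluster 1. *pdgfrb* had 12 UMIs in cluster 6, and *acta2* had none in any cluster. In cluster 3, 7 of 9 mural features and 7 of 9 endothelial features were at 0 UMIs, and the mural list summed to 258 CPM, of which *tagln* made 249 CPM, against 627 CPM in the basal-like clusters. The Immature TB cluster 11 had 302 CPM of *notch3* (131–596), from 8 UMIs in 3 nuclei.

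The second receptor gene, *notch1a*, was sparse, with 91 UMIs in kept nuclei. It had 201 CPM (124–307, from 21 UMIs) in cluster 3 and 36.7 CPM (11.9–85.6, from 5 UMIs) in cluster 4. In the basal-like clusters it had 78.1 CPM (54.7–108, from 36 UMIs) in cluster 0, 116 CPM (67.7–186, from 17 UMIs) in cluster 1 and 14.1 CPM (from 1 UMI) in cluster 7. No pair of neighbours in the order of its levels differed beyond counting error. The epithelium was 3.99-fold (2.12–8.32) above the other nuclei, where 11 UMIs were found. This fold was 2.13 in suffix 1 (0.937–5.45, an interval that holds 1) and 7.90 in suffix 2 (2.56–39.5).

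Cluster 3 over the basal-like clusters was 2.52 (1.45–4.25) for *notch1a*, but this value rests on few nuclei and on the suffix 1 set. The 21 UMIs lay in 9 nuclei, and 1 nucleus of 974 UMIs in all held 8 of them. Without it the fold was 1.58 (0.789–2.93). The suffix sets gave 8.18 (3.26–22.3) and 1.41 (0.492–3.31), again with alike levels in cluster 3 (214 and 174 CPM) and unlike ones in the basal-like clusters (26.2 CPM in suffix 1 and 124 CPM in suffix 2). The share of nuclei with a UMI was 5.70% in cluster 3 and 5.76% in the basal-like clusters, and 1.10% in the Immune cluster 2. The basal-like nuclei are deeper, and thinned to 500 UMIs these shares were 5.90%, 2.65% and 0.522%. Both upper-like clusters together over the basal-like ones gave 1.36 (0.815–2.20), an interval that holds 1. The suffix sets gave 4.28 (1.77–11.4) and 0.807 (0.329–1.73), and only the interval of suffix 1 leaves out 1.

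**Figure D2:**
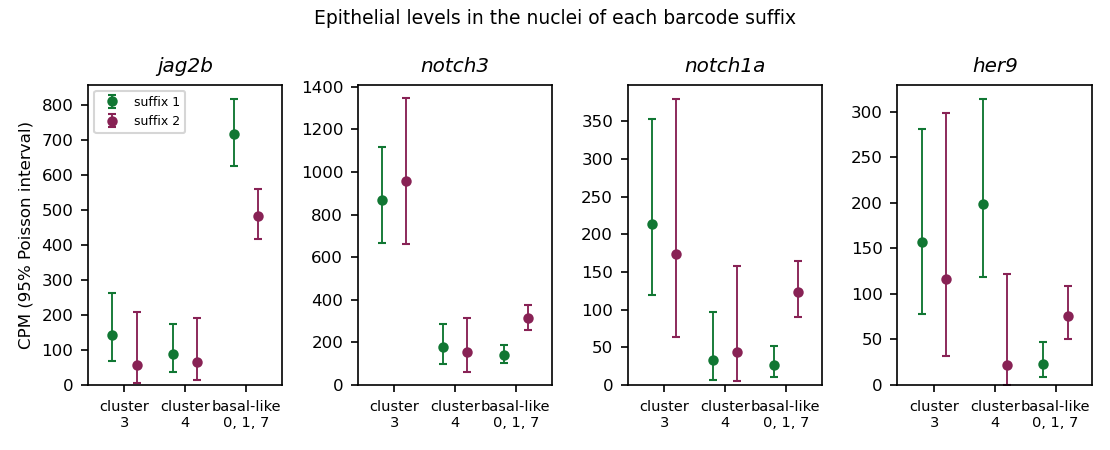
CPM (y axis, linear, from 0) of the 4 genes read in the epithelium, in cluster 3, cluster 4 and the basal-like clusters (x axis), for nuclei of suffix 1 (green) and suffix 2 (purple); points are pooled values and lines 95% Poisson intervals. *jag2b* is higher in the basal-like clusters in both sets and *notch3* is highest in cluster 3 in both sets, while *her9* in cluster 4 stands at 199 CPM in suffix 1 and 21.8 CPM in suffix 2.

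Set against each other, *jag2b* and *notch3* were divided unlike between the layers. Upper-like over basal-like clusters, the fold was 0.162 for *jag2b* and 2.06 for *notch3*. Of the *notch3* UMIs in kept nuclei, 46.6% lay in the basal-like clusters and 34.1% in the upper-like ones. The upper-like clusters had 23 UMIs of *jag2b* and 117 of *notch3*, while the basal-like clusters had 399 of *jag2b* and 160 of *notch3*. The odds of a *jag2b* UMI against a *notch3* UMI were thus 0.0792 (0.0465–0.130) in the upper-like clusters relative to the basal-like ones, a 12.6-fold difference (7.70–21.5). This ratio needs no common total and lay on the same side in both suffix sets, at 0.0465 and 0.0818. It was 0.0514 for cluster 3 and 0.192 (0.0826–0.422) for cluster 4, where the interval of the *notch3* fold holds 1. For *jag2b* against *notch1a* it was 0.121 (0.0609–0.237), with 0.0376 and 0.161 in the suffix sets. It was 0.0781 (0.0330–0.177) for cluster 3 and 0.299 (0.0914–1.14) for cluster 4, where the interval holds 1. The *notch1a* fold of the upper-like over the basal-like clusters was itself 1.36 (0.815–2.20), an interval that holds 1.

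Both genes were also found in the same nuclei. Among the 808 Epithelial nuclei, 51 held a UMI of both *jag2b* and *notch3*, 200 of *jag2b* alone, 117 of *notch3* alone and 440 of neither. Of the 51, 45 were nuclei of cluster 0, the deepest cluster. In nuclei with a *notch3* UMI *jag2b* had 367 CPM (296–450), against 495 CPM (443–551) in nuclei without, and inside cluster 0 the values were 466 CPM (370–578) against 562 CPM (478–656). Inside that cluster the intervals overlap.

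The receptor genes were read together in 23 Epithelial nuclei, with 20 more that held *notch1a* alone. *notch1a* had 193 CPM (143–256) in Epithelial nuclei with a *notch3* UMI, against 46.6 CPM (31.7–66.1) in nuclei without. Inside cluster 0 the values were 119 CPM (73.8–182) with and 52.7 CPM (29.5–86.9) without, and inside cluster 3 they were 295 CPM (157–505) with and 132 CPM (57.1–261) without. Inside each of these clusters the intervals overlap. In cluster 1 the values were 1175 CPM (586–2102) with and 43.8 CPM (16.1–95.4) without, but the former came from 11 UMIs in 2 nuclei. Nuclei with a *notch3* UMI were also the deeper ones, with a median of 1159 UMIs against 788 without. The parts of depth and of suffix in this were not tested.

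The gene *her9* is counted among the Notch targets here by its family, and whether it answers to Notch in this tissue was not tested. It was read in the epithelium and sparse, with 76 UMIs in kept nuclei. It had 144 CPM (80.4–237, from 15 UMIs) in cluster 3 and 139 CPM (83.9–218, from 19 UMIs) in cluster 4. In the basal-like clusters it had 67.3 CPM (45.7–95.5, from 31 UMIs) in cluster 0, 27.4 CPM (7.45–70.0, from 4 UMIs) in cluster 1 and no UMI in cluster 7, where 3 UMIs would equal 42.4 CPM. Unlike *notch3*, it was at a like level in both upper-like clusters. The 7 UMIs outside the epithelium gave 13.9 CPM, and the Epithelial class was 5.41-fold higher (2.49–14.0).

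The upper-like clusters over the basal-like ones gave a *her9* fold of 2.73 (1.65–4.51), a value that the suffix 1 set decides. That set gave 7.88 (3.38–21.3), from 29 upper-like UMIs, and suffix 2 gave 0.829 (0.250–2.17), from 5. In cluster 4, 18 of the 19 UMIs came from suffix 1, and without the nucleus that held 5 of them the fold of cluster 4 was 2.01 (0.999–3.83) in place of 2.70 (1.46–4.85). The suffix sets gave 8.68 and 0.290 for that cluster. In cluster 3 the UMIs were spread over 14 nuclei, and the folds were 6.86 in suffix 1 and 1.55 (0.394–4.42) in suffix 2. Within the basal-like side cluster 0 stood above clusters 1 and 7 by 3.65-fold (1.29–14.2) for *her9*. This was 4.68 (1.17–40.7) in suffix 2 and 1.58 (0.259–16.6) in suffix 1, where the interval holds 1.

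Nuclei that held a UMI of both *notch3* and *her9* were found mainly in cluster 0, the deepest cluster, 17 of 21. There *notch3* had 616 CPM (434–849) in nuclei with a *her9* UMI and 264 CPM (216–320) in nuclei without, at medians of 2046 and 1638 UMIs. Of the 24 cluster 0 nuclei with a *her9* UMI, 19 were of suffix 2. In that cluster *notch3* had 384 CPM in suffix 2 and 203 CPM in suffix 1. The parts of depth and of suffix in this were not tested. In cluster 3, where *notch3* is highest, 3 nuclei held both, and *notch3* had 340 CPM (92.7–871) with *her9* and 971 CPM (781–1193) without. The share of nuclei with a *her9* UMI was 8.86% in cluster 3 and 10.3% in cluster 0, and 6.93% and 2.89% after thinning to 500 UMIs.

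The fringe gene *mfng* was absent or nearly so from the epithelium. It had no UMI in clusters 3, 1 and 7, 4 UMIs in cluster 4 and 1 UMI in cluster 0, together 5 of 148 UMIs in 0.619% of Epithelial nuclei. It had 430 CPM (336–541, from 72 UMIs) in cluster 2, 259 CPM (148–420) in cluster 8 and 184 CPM (50.2–471) in cluster 9, the clusters of the Immune class. Cluster 5, which the authors name Pigmented, had 492 CPM (359–659, from 45 UMIs) and did not differ from cluster 2 beyond counting error. In the Mesenchymal, Mature TB and Immature TB clusters 1 to 3 UMIs were found.

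The Immune class stood 7.67-fold (5.44–10.9) above the other kept nuclei for *mfng*, with cluster 5 among the others. Clusters 2 and 5 together stood 17.0-fold (11.3–26.1) above all other kept nuclei, with 31.6 and 9.29 in the suffix sets. They held 117 of the 148 UMIs. These are the 2 clusters where *mfng* was highest, so the size of this fold follows from their choice. The leukocyte list summed to 2840 CPM in cluster 2 and 2845 CPM in cluster 5, against 261 CPM in the basal-like clusters. It also summed to 1845 CPM in cluster 8 and 1611 CPM in cluster 9. In cluster 5 the macrophage list summed to 4300 CPM, with 8 of 9 features found, against 363 CPM in cluster 6, the next in order. The pigment list was also highest in cluster 5, at 624 CPM against 243 CPM in cluster 8, the next in order, from 3 of its 9 features. A UMI of *mfng* was found in 21.0% of cluster 2 nuclei (15.3–27.7) and 30.6% of cluster 5 nuclei (21.7–40.7). The 4 other genes had their highest level in an epithelial cluster. The 4 epithelial UMIs of cluster 4 stand beside its 1841 CPM of leukocyte genes, whose part was not tested. That sum comes mostly from other features than *ptprc*, *ikzf1* and *jak3*, which had 3, 2 and 6 of its 251 UMIs. *jak3* was at 44.0 CPM in cluster 4 and at 501 CPM in cluster 2.

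Against the background of all features these counts read as follows. In the Epithelial class over the other nuclei, 4 of the 5 genes were at least 2-fold higher, where 12.6% of 9333 features with at least 20 UMIs were. In clusters 2 and 5 over the rest, 1 of the 5 was at least 2-fold higher, *mfng*, where 13.5% of features were. These are the clusters where *mfng* was highest, so that call was fixed by the choice of clusters. In the upper-like over the basal-like clusters 4 of the 5 genes passed the minimum of 20 UMIs. Of these, *notch3* and *her9* were at least 2-fold higher, where 13.5% of 6979 features were, and *jag2b* was at least 2-fold lower, where 16.2% were.

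For cluster 3 alone, 3 of 4 genes (*notch3*, *notch1a*, *her9*) were at least 2-fold higher, where 9.29% of 6212 features were, and *jag2b* was lower, where 18.5% were. For cluster 4 alone, *her9* was higher, where 16.4% of 6544 features were, and *jag2b* and *notch1a* were lower, where 24.9% were. The genes were picked with such results known, so these counts describe them and carry no test. Scaling by TMM factors, which take most features as unchanged, shifted every log2 fold of cluster 3 over the basal-like clusters by −0.26. All 4 genes kept their side of 2-fold there, with *notch3* at 3.17, *notch1a* at 2.10, *her9* at 2.31 and *jag2b* at 0.162. The same scaling made the share of higher features among all features past 2-fold 18.1% in place of 33.4%. For cluster 4 the shift was −0.24 and the share 29.3% in place of 39.7%. For both upper-like clusters together the shift was −0.15, and *notch3* was 1.86-fold higher, under 2-fold.

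The layers were also drawn from the junction lists alone, the same lists by which the clusters were placed. Epithelial nuclei with more UMIs of the upper list than of the basal list (134 nuclei) had 26.4 CPM (5.44–77.1) of *jag2b*, against 529 CPM (480–583) in those with fewer (649 nuclei). For *her9* the values were 176 CPM (107–272) against 60.9 CPM (44.9–80.8). For *notch3* they were 343 CPM (244–469) against 293 CPM (257–334) and did not differ beyond counting error. Nor did those of *notch1a*, at 123 CPM (67.3–207) against 83.8 CPM (64.8–107). Of the 158 nuclei of cluster 3, 93 fell on the basal-like side of this split. The 134 nuclei of its upper-like side were 84 of cluster 4, 49 of cluster 3 and 1 of cluster 0. For that side the split thus largely repeats the clusters and is no independent check.

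A second split, chosen after the first was seen, put nuclei with more than the mean share of upper-list UMIs (368 nuclei) against the others (440 nuclei). It gave *notch3* 452 CPM (388–524) against 191 CPM (155–232), *jag2b* 277 CPM (228–335) against 593 CPM (529–663) and *her9* 126 CPM (93.1–166) against 37.8 CPM (23.1–58.4). *notch1a* was at 126 CPM (93.1–166) against 58.6 CPM (39.8–83.1), beyond counting error only in this second split. Neither split was divided by suffix. Between the clusters, the upper-like *her9* fold was 7.88 in suffix 1 and 0.829 (0.250–2.17) in suffix 2. With both suffix sets pooled, *jag2b* was lower and *her9* higher on the upper-like side under both splits. *notch3* was higher on the upper-like side under both, but beyond counting error only in the second, which placed 123 nuclei of cluster 3, 70 of cluster 0 and 50 of cluster 1 on that side.

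**Figure D3:**
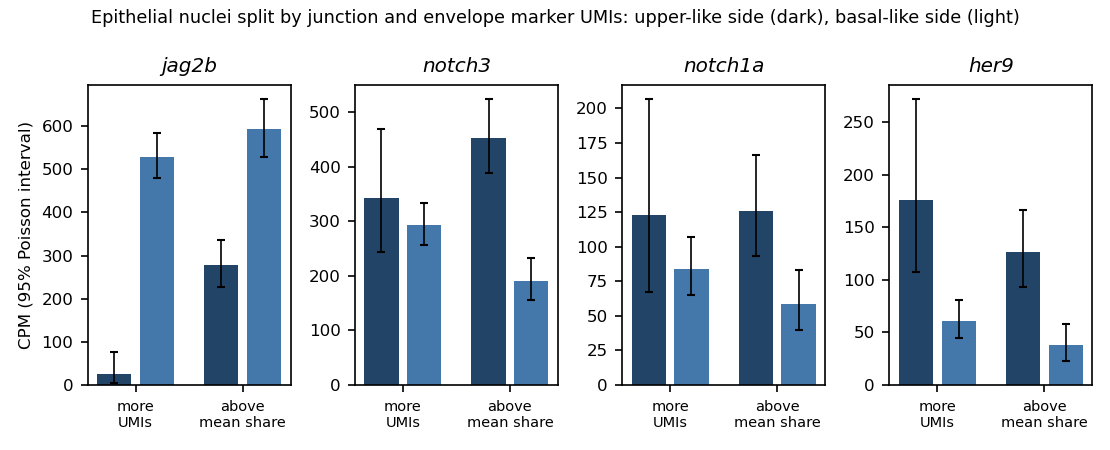
CPM (y axis, linear, from 0) of the 4 genes in Epithelial nuclei on the upper-like (dark) and basal-like (light) side, split by which junction list has more UMIs (left pair) or by the mean share of upper-list UMIs (right pair); bars are pooled values and lines 95% Poisson intervals. *jag2b* is lower on the upper-like side in both pairs, and *notch3* is separated only in the right pair, at 452 against 191 CPM.

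Around the set, 76 names of Notch pathway genes were looked up, 75 features matched, 48 of them had at least 20 UMIs in kept nuclei and 14 had none. In cluster 3 over the basal-like clusters 40 could be compared, of which 6 were at least 2-fold higher and 4 lower, where 9.29% and 18.5% of all features were. The 6 include *notch3*, *notch1a* and *her9* of the set itself, beside *notch2*, *nrarpa* and a copy of *TLE3*. The 4 include *jag2b*. In cluster 4 they were 41, with 6 higher and 10 lower, shares near the 16.4% and 24.9% of all features. Here *her9* is among the higher, and *jag2b* and *notch1a* are among the lower. In cluster 3 the median log2 fold was 1.34 over the 3 receptor genes, 1.39 over the 2 target genes and −2.26 over the 3 ligand genes, against −0.03 over all features compared. In cluster 4 it was −0.48, 0.46 and −2.64, against −0.15. The set's own genes are in these medians, and the 1.34 of the receptor genes is the value of *notch1a* itself. The −2.26 and −2.64 of the ligand genes are the values of *dlk2*, which had 1 UMI in each of clusters 3 and 4. *jag1b*, the ligand gene with the most UMIs (1711), had folds of 1.32 in cluster 3 and 0.451 in cluster 4. Neither the counts nor the medians are thus independent of the set.

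All 3 receptor genes compared were at least 2-fold higher in cluster 3, where 9.29% of 6212 features were. For *notch1a* the fold was 1.58 (0.789–2.93) without the nucleus that held the most of its UMIs. In suffix 2 it was 1.41 (0.492–3.31). The third, *notch2*, had 459 CPM in cluster 3, 447 CPM in cluster 4 and 202 CPM in the basal-like clusters, folds of 2.27 (1.60–3.18) and 2.21 (1.61–3.01), or 1.89 and 1.87 under TMM factors. It is thus the receptor gene that was higher in both upper-like clusters, and unlike *notch3* it was not higher in the epithelium than elsewhere (0.738, 0.607–0.899). The copy *notch1b* had 13 UMIs.

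Among the ligands the other Jagged gene, *jag1b*, was read in all epithelial clusters. It had 2096 CPM in cluster 3, 719 CPM in cluster 4 and 1593 CPM in the basal-like clusters, folds of 1.32 (1.13–1.52) and 0.451 (0.363–0.555). It was thus not lower in cluster 3, where *jag2b* was, but both were lower in cluster 4. The Delta-like gene *dlk2*, with 46 UMIs, had 1 UMI in each upper-like cluster and 31 in the basal-like ones. Delta genes were hardly found, with 10 UMIs of *dlc*, 3 of *dll4* and none of *dla* and *dlb*.

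Of 16 target features, 10 had no UMI and 2 had at least 20, *her9* and *nrarpa*. *nrarpa*, which codes for a small protein that dampens Notch signalling, had 182 CPM in cluster 3, 51.3 CPM in cluster 4 and 73.8 CPM in the basal-like clusters. Against the basal-like clusters this is 2.47-fold (1.37–4.26) in cluster 3 and 0.696 (0.266–1.54, from 7 UMIs) in cluster 4. Cluster 3 was thus highest of the 3 groups, as for *notch3*. For both genes the interval of cluster 4 over the basal-like clusters holds 1. The classical targets *her6*, *hey1* and *heyl* had 16, 9 and 7 UMIs, and all 7 of *heyl* lay in the Mesenchymal cluster 6, as did the 3 of *dll4*.

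Genes of the shared machinery were past 2-fold in some cases. *numb*, whose protein holds Notch back inside the cell, had 191 CPM in cluster 3, 330 CPM in cluster 4 and 98.8 CPM in the basal-like clusters, with folds of 1.94 (1.11–3.23) and 3.34 (2.24–4.95). *RBPJ* had 239 CPM in cluster 3, 308 CPM in cluster 4 and 394 CPM in the basal-like clusters, and its fold in cluster 3 was 0.607 (0.386–0.917). The co-repressor gene *tle2b* was lower in cluster 4 (0.268), and *furinb*, for a protease that trims the receptor, in cluster 3 (0.274). Of the 8 cleavage genes compared in cluster 3 none was at least 2-fold higher and 1 was lower, and of the 9 traffic genes none was past 2-fold in either direction, while 1 of the 13 genes of the nuclear complex was higher. In cluster 4, 1 of 8 cleavage genes and 1 of 10 traffic genes were higher and as many lower, and of the 13 genes of the nuclear complex 2 were higher and 3 lower. Among all features 9.29% were higher and 18.5% lower in cluster 3, and 16.4% and 24.9% in cluster 4.

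Like *mfng*, the coactivator gene *maml3* had its highest level in cluster 5, at 1838 CPM, and *DTX1* in cluster 2, at 119 CPM. Of the other fringe genes, *rfng* had 51 UMIs and *lfng* 6.

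**Figure D4:**
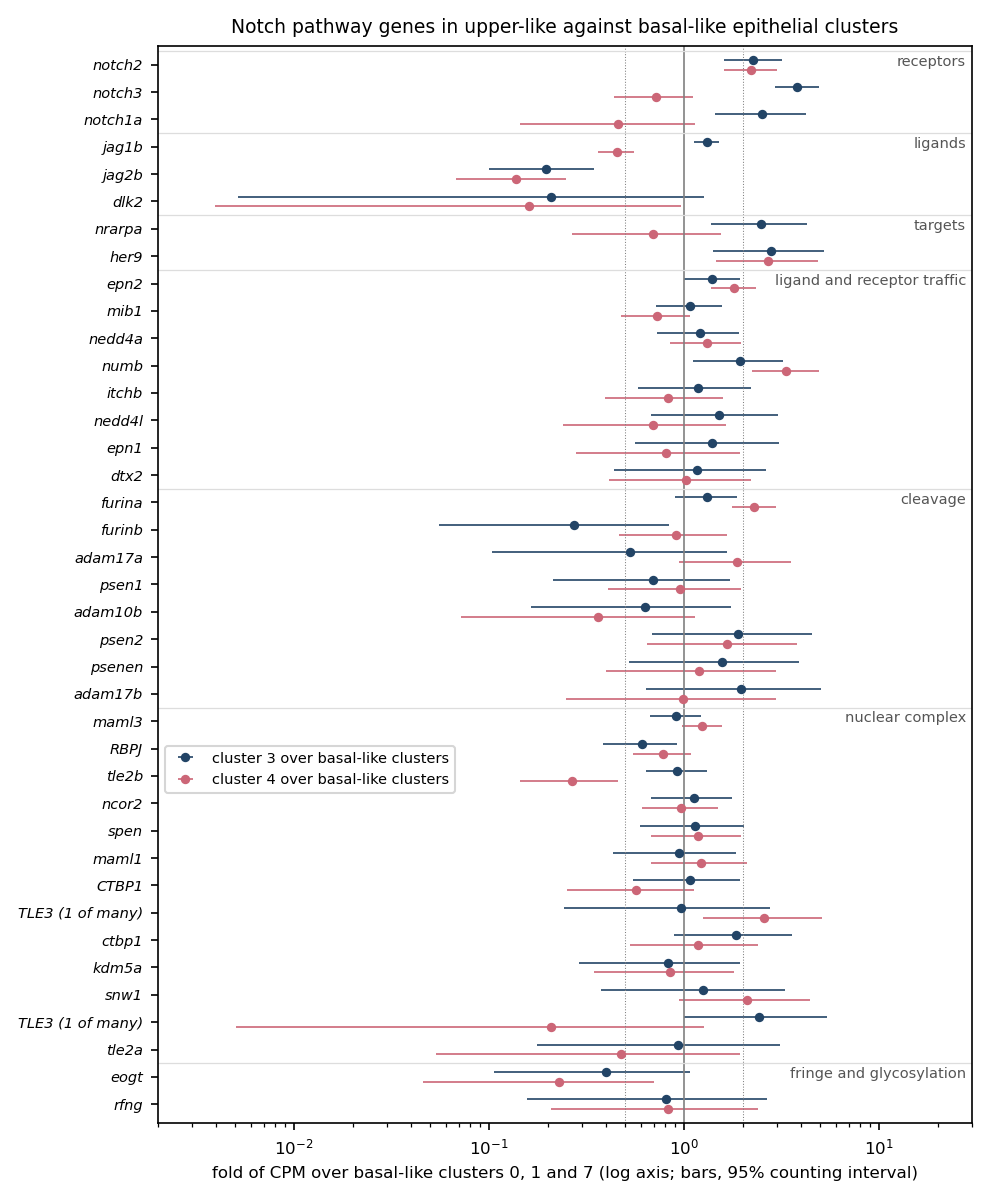
Fold of CPM (x axis, log scale) of cluster 3 (blue) and cluster 4 (red) over the basal-like clusters for 39 Notch pathway genes (y axis, by role) that had UMIs enough for both; points are folds and lines 95% counting intervals. Receptors and targets lie right of 1 in cluster 3, *jag2b* lies left of 1 in both at 0.195 and 0.137, and most genes of cleavage, traffic and the nuclear complex straddle 1.

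The genes whose levels over the 12 clusters were most like those of each gene were ranked by Pearson's r of log2(CPM + 10) among 3176 features with at least 100 UMIs. The clusters share libraries and differ in depth, so these r describe and carry no p. They also depend on how likeness is measured: under Spearman's rho none of the 4 genes named for *jag2b* and for *notch3* stayed among the nearest 4, 1 of those named for *notch1a* did, and 2 each of those for *her9* and *mfng*. *jag2b* was most like *lpar3* (0.943), a receptor for lysophosphatidic acid, *lrig3* (0.931), a membrane protein, *ccl25b* (0.922), a chemokine, and *elmsan1b* (0.917). *notch3* was most like *plce1* (0.813), a phospholipase, *rsl24d1* (0.778), *BTBD11* (0.774) and a copy of *ST3GAL1* (0.771), a sialyltransferase.

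*notch1a* was most like *gpatch8* (0.859), *fosab* (0.843), a transcription factor of the AP-1 family, a copy of *PKP1* (0.799), a desmosomal plaque gene, and *ep300a* (0.799), a histone acetyltransferase. *her9* was most like *myh14* (0.932), a non-muscle myosin heavy chain, and *APK84_gp11* (0.944), *APK84_gp10* (0.934) and *APK84_gp12* (0.919), features without a gene description in the sources used here. *mfng* was most like *ccdc88b* (0.958), *adgrg1* (0.948), *jak3* (0.947) and *dock4b* (0.946), of which *jak3* codes for a kinase of lymphocyte cytokine receptors and is in the leukocyte list. Within the set, r was 0.72 for *notch3* and *her9*, 0.67 for *notch1a* and *her9*, and 0.58 for *notch1a* and *notch3*. For *jag2b* it was −0.20 with *notch3*, 0.44 with *notch1a* and 0.18 with *her9*. For *mfng* it was −0.70 with *notch1a*, −0.46 with *her9*, −0.35 with *jag2b* and −0.32 with *notch3*. *notch1a* and *her9*, with 91 and 76 UMIs, lie under the minimum of 100 UMIs set for the ranked features. Clusters 8, 9 and 10 held no UMI of *notch1a*, and clusters 5, 7, 9 and 10 none of *her9*. Every r of these genes thus rests on few counts.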

How the data were processed

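The matrix that the authors deposited gives unnormalized UMI counts for every feature in every barcode. Cell Ranger 3.1.0 is named in its file headers and in the submitters' processing notes. The genome build is not given in the sources used here. The deposited metadata list the cluster and the class of each nucleus and whether it was kept. They also hold a score, cyto, made by the authors by a rule that is not stated, and not reported here. Symbols, Ensembl identifiers and clusters were taken as the files give them.

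UMIs of the 1296 kept nuclei were summed by cluster, class or layer and divided by the group's total. Intervals are exact (95%), and a group without UMIs was bounded with a floor of 3 UMIs over the group. Shares were also computed after thinning to 500 UMIs, which leaves 106 of 158 nuclei in cluster 3 and 178 of 222 in cluster 1. No doublet caller was run, and the highest 5% of nuclei by UMIs were left out as an alternative. Features count as past 2-fold from 20 UMIs in both groups together. Named genes were the 5 genes, pathway genes with at least 20 UMIs and, for each of the 5, the 4 features most like it. Other genes (*notch1b*, *her6*, *hey1*, *heyl*, *dlc*, *dll4*, *dla*, *dlb*, *lfng* and marker genes) are named for their few UMIs or as markers, after their values were seen. Genes and lists were chosen with earlier results of these data known. Features named 1 of many can share reads with copies. The scripts were tested on simulated data. TMM factors came from edgeR 4.0.16 in R 4.3.3, and everything else was computed in Python 3.11.15 with scipy 1.17.1, numpy 2.4.6 and pandas 2.3.3.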

Additional observations from a re-analysis of the deposited data

Results flagged for a closer look

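The 85 barcodes that the authors left out hold UMIs of all 5 genes, above the limit that a count of 0 allows (4.44 CPM there), and no comparison above uses them. They held 255 UMIs of *jag2b*, 218 of *notch3*, 24 of *notch1a*, 48 of *her9* and 42 of *mfng*, which equal 377, 323, 35.5, 71.0 and 62.1 CPM. Of these barcodes 44 have few genes and 41 many, with up to 134092 UMIs in a barcode. A single barcode held as many as 57 UMIs of *jag2b* and 48 of *notch3*. None has a cluster, so these UMIs cannot be placed in a layer.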

How the results depend on the processing

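No paired analysis was possible because the labels give no replicates and no file used here ties a nucleus to a jaw. Folds of the Epithelial class kept their direction for *jag2b* (2.43 to 3.25), *notch1a* (2.13 to 7.90) and *her9* (4.83 to 7.22) under 8 alternatives, and so did *notch3* (1.87 to 3.31, where 3.31 is the mean over nuclei) and *mfng* in the Immune class (6.31 to 8.80). Between the upper-like and the basal-like clusters, *notch3* was 3.41 in suffix 1, 1.59 in suffix 2, 3.0 as a mean over nuclei, 1.17 with layers by marker UMIs, 3.81 for cluster 3, 1.57 over cluster 0, 6.20 over clusters 1 and 7, and on the other side of 1 for cluster 4 (0.715). *jag2b* was 0.0499 with layers by marker UMIs and 0.467 by marker share, and lower under all 14 alternatives. *her9* was 7.88 in suffix 1, 7.66 over clusters 1 and 7, and on the other side of 1 in suffix 2 (0.829). *notch1a* was 4.28 in suffix 1, 0.807 in suffix 2, 2.52 for cluster 3 and 0.460 for cluster 4. The odds of *jag2b* against *notch3* were 0.0465 in suffix 1, 0.0428 by marker UMIs, 0.192 for cluster 4, 0.198 by marker share and 0.0217 over clusters 1 and 7. Those against *notch1a* were 0.0376, 0.0343 and 0.299 for the same first 3 settings. Features past 2-fold were 422 higher and 590 lower from 50 UMIs, and 4119 and 5414 without a minimum, against 939 and 1132. Causes were not tested, other than that minimums change how many features are compared. Of the 4 genes most like each gene, a pseudocount of 50 CPM kept none for *notch3*, 1 each for *notch1a* and *mfng*, 2 for *jag2b* and 3 for *her9*, and a minimum of 50 UMIs kept 1 for *notch1a* and 2 for *notch3*. For *mfng*, a minimum of 200 UMIs and a pseudocount of 1 CPM kept 2 each. Clusters of the left-out barcodes were not run, since these have none. Depth limits *notch1a* and *her9*: 3 UMIs equal 28.7 CPM in cluster 3.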
